A study of Mus musculus with 6 samples.

Results

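The genes described here are 9 transcription factors of fat cell formation: Pparg, Rxra, Cebpa, Cebpb, Cebpd, Ebf1, Zfp423, Klf15 and Klf5. They were taken by symbol from a deposited table of 48897 mouse genes, as factors known for this role and with earlier results of these data known, and all 9 were found and passed the filter on low counts. The table holds whole-number read counts per gene and RPKM, which are reads scaled to gene length and library total.

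The series asked what weight cycling does to metabolic homeostasis, and sequenced messenger RNA of the epididymal fat pad (white adipose tissue) of wild type C57BL/6 mice 35 weeks old. From 6 weeks of age the mice ate either a diet with 60% of its energy as fat (high-fat) or one with 10% (low-fat). Group F-H-L is read as diet-cycled mice, with 9 weeks on the high-fat diet and then 10 rounds of a low-fat week followed by a high-fat week, so that the last diet was high-fat. F-H is read as mice kept on the high-fat diet and F-L as mice kept on the low-fat diet, and only the letters of the codes tie them to these diets. The 2 libraries of a group are numbered replicates, and no label says whether they are from different mice, so p-values reflect only how far libraries of a group lay apart, which may be technical.

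Fat cells arise from fibroblast-like progenitors through a cascade of transcription factors. C/EBPβ (Cebpb) and C/EBPδ (Cebpd) act early after an adipogenic stimulus, and PPARγ (Pparg), which binds DNA as a dimer with RXRα (Rxra), and C/EBPα (Cebpa) then maintain each other's expression and switch on lipid storage and adipokine genes in mature adipocytes. EBF1 (Ebf1) and the zinc finger protein ZFP423 (Zfp423) act in committed progenitors and remain expressed in mature fat, while the Krüppel-like factors KLF5 (Klf5) and KLF15 (Klf15) promote differentiation in mouse cell culture. KLF15 also controls amino acid and glucose metabolism in liver, muscle and fat, and KLF5 is abundant in many epithelia.

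The 6 libraries held 41091012 to 49230161 counted reads each, and they differed in the marker RNA of several cell types. Adipocyte markers, given as the geometric mean of 20 genes (none of the 9 factors among them) in CPM (counts divided by the TMM-adjusted library total), were at 1287 and 1534 in F-H-L, 552 and 669 in F-H, against 113 and 797 in F-L replicates 1 and 2. F-L replicate 1 therefore stood below the other 5 libraries in adipocyte RNA, and it held the highest sum of 10 epididymis markers: 1665 and 1437 CPM in F-H-L, 3.08 and 444 CPM in F-H, against 14913 and 3334 CPM in F-L. In F-H replicate 1, 4 of those 10 genes (Lcn5, Cst8, Ovch2 and Crisp4) had no count, which allows up to 0.0661 CPM each. Medians of these 10 genes were 1.71 and 4.41 CPM in F-H-L, 0.022 and 4.81 CPM in F-H, against 67.6 and 11.9 CPM in F-L. F-H replicate 2 was thus below both F-H-L libraries by the sum but not by the median. The sum of 10 male germ cell markers was 111 and 138 CPM in F-H-L, 3.61 and 9.11 CPM in F-H, against 655 and 5416 CPM in F-L. The sum of 12 macrophage markers was 1740 and 1270 CPM in F-H-L, 16363 and 11243 CPM in F-H, against 359 and 724 CPM in F-L. In such bulk samples fewer cells of a type and less RNA per cell cannot be told apart. Most of the 20 adipocyte genes are also in the list of PPARγ and C/EBPα targets described below, so they are not a measure independent of these factors.

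By RPKM, a level per gene length, Cebpa was the most abundant of the 9 factors in all 3 groups. Its mean was 328.5 ± 9.2 in F-H-L, 212 ± 39 in F-H and 105 ± 104 in F-L (SD, n = 2 each). In F-H-L the order continued with Cebpb, Pparg, Rxra, Cebpd, Ebf1, Klf15, Zfp423 and Klf5, and only the neighbours Cebpb and Pparg overlapped. In F-H the order was Cebpb, Pparg, Rxra, Cebpd, Ebf1, Zfp423, Klf15 and Klf5, and only Zfp423 and Klf15 overlapped. In F-L each factor below Cebpa overlapped its neighbour in the order, since the 2 libraries of that group differed from each other. The higher F-L library exceeded the lower by 7.68-fold for Ebf1, 6.84-fold for Pparg, 5.64-fold for Cebpa and 5.05-fold for Zfp423, and by 1.12-fold for Klf15 and 1.27-fold for Klf5. Within F-H-L the libraries lay within 1.13-fold of each other for 7 factors, against 2.97-fold for Cebpb and 1.38-fold for Klf5. The factors rested on 301 to 38939 counts per library, except Klf5, which had 6 to 242.

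**Figure D1:**
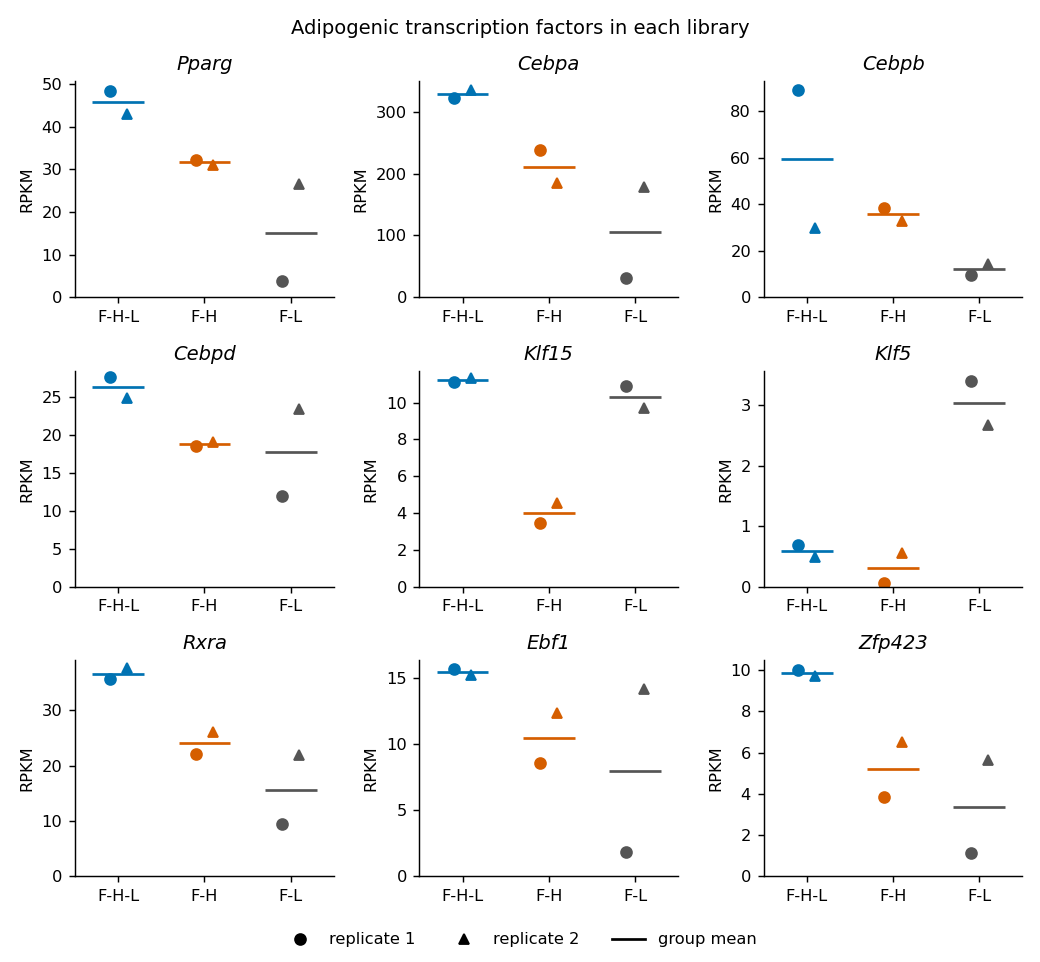
RPKM (reads scaled to gene length and library total) of the 9 factors in each library of F-H-L, F-H and F-L, with the group mean as a line. For 7 factors F-L replicate 1 is the lowest of the 6 libraries, Klf15 is lowest in both F-H libraries, and Klf5 is highest in both F-L libraries.

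Pparg (chr6:115360877-115490404, plus strand, mm10) encodes the nuclear receptor without which white fat does not form. It measured 48.5 and 43.0 RPKM in F-H-L, 32.3 and 31.0 RPKM in F-H, against 3.86 and 26.4 RPKM in F-L. All 4 F-H-L and F-H libraries were above both F-L libraries, and both F-H-L libraries were above both F-H libraries. The log2 fold change was 1.33 ± 0.80 for F-H against F-L (SE, edgeR adjusted p = 0.327), 1.89 ± 0.81 for F-H-L against F-L (edgeR adjusted p = 0.291) and 0.56 ± 0.79 for F-H-L against F-H (edgeR adjusted p = 0.814). None of the 3 passed the threshold of 0.05. Gene-level counts do not separate the 2 promoters of Pparg, of which the internal one gives the adipocyte-enriched form γ2.

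Rxra (chr2:27676445-27763319, plus strand) encodes the partner with which PPARγ binds DNA. It measured 35.6 and 37.6 RPKM in F-H-L, 22.1 and 26.0 RPKM in F-H, against 9.47 and 21.9 RPKM in F-L. Each F-H-L library was above each F-H library, and the lower F-H library was close to F-L replicate 2. For Rxra the log2 fold change was 0.86 ± 0.41 for F-H against F-L (edgeR adjusted p = 0.232), 1.50 ± 0.42 for F-H-L against F-L (edgeR adjusted p = 0.274) and 0.64 ± 0.41 for F-H-L against F-H (edgeR adjusted p = 0.597). The ratio of Pparg to Rxra RPKM was 1.36 and 1.14 in F-H-L, 1.46 and 1.19 in F-H, against 0.408 and 1.21 in F-L. Only F-L replicate 1 held less Pparg than Rxra message per length.

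Cebpa (chr7:35119293-35121928, plus strand) encodes C/EBPα, which with PPARγ keeps the adipocyte program running. It measured 322 and 335 RPKM in F-H-L, 239 and 184 RPKM in F-H, against 31.7 and 179 RPKM in F-L. The 3 groups did not overlap, although F-H replicate 2 and F-L replicate 2 were close. The log2 fold change was 1.28 ± 0.78 for F-H against F-L (edgeR adjusted p = 0.331), 1.94 ± 0.79 for F-H-L against F-L (edgeR adjusted p = 0.282) and 0.66 ± 0.77 for F-H-L against F-H (edgeR adjusted p = 0.767). The ratio of Cebpa to Pparg RPKM was 6.64 and 7.79 in F-H-L, 7.41 and 5.93 in F-H, against 8.20 and 6.76 in F-L. The pair thus kept a narrow ratio also in F-L replicate 1, where each had its lowest level.

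The promoters of Cebpa and of the internal Pparg start are shown because these 2 genes had nearly parallel levels over the 6 libraries. Each is the 250 bases before a RefSeq start in GRCm38.p6, plus strand, 5′ to 3′, with the matches on either strand to 4 of the 8 motifs searched in capitals: the CCAAT box CCAAT, the GC box GGGCGG, the E-box CACGTG and the TATA box TATAAA.
Cebpa, chr7:35119043-35119292: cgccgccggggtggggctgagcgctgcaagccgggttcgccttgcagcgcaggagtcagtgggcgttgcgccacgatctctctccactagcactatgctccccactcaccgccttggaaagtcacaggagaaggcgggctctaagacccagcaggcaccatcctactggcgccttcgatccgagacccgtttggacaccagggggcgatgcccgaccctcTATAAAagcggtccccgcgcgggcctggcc
Pparg internal start, chr6:115421816-115422065: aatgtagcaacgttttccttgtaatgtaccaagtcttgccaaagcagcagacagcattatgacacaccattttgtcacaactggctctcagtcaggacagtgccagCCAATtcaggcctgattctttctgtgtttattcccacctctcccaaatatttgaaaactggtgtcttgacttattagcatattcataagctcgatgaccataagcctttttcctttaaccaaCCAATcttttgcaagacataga
The Cebpa window held TATAAA from base -30 to -25 counted from the start, a motif in 12.4% of the 32841 RefSeq promoter windows of this length. The Pparg window held CCAAT at -144 and -22, a motif in 33.9% of windows. GENCODE M21 places at this Pparg start a transcript with 505 codons, against 475 for the full-length products of the upstream starts. Sequences of this kind were found for 7 of the 9 factors. The C/EBP palindrome core TTGCGCAA (in 0.164% of all windows), the EBF palindrome (0.78%) and the direct repeat of the nuclear receptor site with 1 spacer base (0.0335%) were in none of the windows of those 7, and a match or its lack is a description of these letters only. The remaining motif, CACCC, was in 52.0% of all windows and is left in lower case.

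Cebpb (chr2:167688915-167690432, plus strand) encodes C/EBPβ, which acts early in adipogenesis and is also induced in macrophages and by inflammation. It measured 89.1 and 30.0 RPKM in F-H-L, 38.6 and 32.8 RPKM in F-H, against 9.68 and 14.2 RPKM in F-L. F-H-L replicate 1 stood alone at the top, F-H-L replicate 2 was below both F-H libraries, and both F-L libraries were lowest. Fitted log2 fold changes were 1.82 ± 0.53 for F-H against F-L (edgeR adjusted p = 0.103), 2.56 ± 0.54 for F-H-L against F-L (edgeR adjusted p = 0.274) and 0.74 ± 0.51 for F-H-L against F-H (edgeR adjusted p = 0.622). Without F-H-L replicate 1 the last of these was -0.16, so that its sign rests on that library. The ratio of Cebpb to Cebpa RPKM was 0.277 and 0.0895 in F-H-L, 0.161 and 0.178 in F-H, against 0.306 and 0.0796 in F-L, and it differed more within F-H-L and within F-L than within F-H. The macrophage markers were higher in both F-H libraries than in every F-H-L and F-L library, and their part in the Cebpb level was not tested.

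Cebpd (chr16:15887286-15889545, plus strand) encodes C/EBPδ, the other early member of the family. It measured 27.7 and 24.9 RPKM in F-H-L, 18.6 and 19.0 RPKM in F-H, against 12.0 and 23.4 RPKM in F-L. The F-L libraries lay on either side of both F-H libraries. For Cebpd the log2 fold change was 0.33 ± 0.34 for F-H against F-L (edgeR adjusted p = 0.570), 0.84 ± 0.34 for F-H-L against F-L (edgeR adjusted p = 0.282) and 0.51 ± 0.34 for F-H-L against F-H (edgeR adjusted p = 0.611). In F-L replicate 1 Cebpd made up 20.2% of the summed RPKM of the C/EBP genes, against 5.83% to 10.0% in the other 5 libraries.

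Ebf1 (chr11:44618100-45008096, plus strand) encodes a factor of adipose progenitors and B cells that activates Cebpa and Pparg in mouse cell culture. It measured 15.7 and 15.3 RPKM in F-H-L, 8.57 and 12.4 RPKM in F-H, against 1.85 and 14.2 RPKM in F-L. F-L replicate 2 was above both F-H libraries, and F-L replicate 1 was the lowest of all. On the log2 scale Ebf1 differed by 0.64 ± 0.84 for F-H against F-L (edgeR adjusted p = 0.657), 1.25 ± 0.84 for F-H-L against F-L (edgeR adjusted p = 0.429) and 0.60 ± 0.83 for F-H-L against F-H (edgeR adjusted p = 0.809). Without F-L replicate 1 the first was -0.18.

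Zfp423 (chr8:87661810-87959595, minus strand) encodes a preadipocyte determination factor that also restrains thermogenic genes in white fat. It measured 10.0 and 9.73 RPKM in F-H-L, 3.86 and 6.52 RPKM in F-H, against 1.11 and 5.63 RPKM in F-L. Both F-H-L libraries were above the other 4, among which F-H and F-L overlapped. On the log2 scale Zfp423 differed by 0.87 ± 0.71 for F-H against F-L (edgeR adjusted p = 0.468), 1.84 ± 0.73 for F-H-L against F-L (edgeR adjusted p = 0.278) and 0.97 ± 0.71 for F-H-L against F-H (edgeR adjusted p = 0.638). The sum of 10 adipose progenitor markers was 2296 and 2324 CPM in F-H-L, 2926 and 3860 CPM in F-H, against 892 and 1315 CPM in F-L, so it was highest in F-H, where Zfp423 was not.

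Klf15 (chr6:90462545-90479170, plus strand) was lowest in F-H and was not low in F-L replicate 1. It measured 11.1 and 11.3 RPKM in F-H-L, 3.47 and 4.53 RPKM in F-H, against 10.9 and 9.71 RPKM in F-L. Both F-H libraries were lower than the other 4, and the 2 libraries of each group were close to each other, F-L included. The F-L pair was close although its libraries differed in marker RNA. Adipocyte markers were at 113 and 797 CPM and epididymis markers at 14913 and 3334 CPM in F-L replicates 1 and 2. The part of this difference in the Klf15 level and its SE was not tested. The log2 fold change was -1.14 ± 0.26 for F-H against F-L (edgeR adjusted p = 0.0790, unadjusted p = 0.00536), 0.38 ± 0.26 for F-H-L against F-L (edgeR adjusted p = 0.424) and 1.53 ± 0.26 for F-H-L against F-H (edgeR adjusted p = 0.244, unadjusted p = 0.00143). These were the smallest SEs among the 9 factors, yet none of the 3 values passed the threshold after adjustment over 22289 genes.

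The Klf15 calls depended on the fit. Over 14 alternatives the F-H-L against F-H value stayed positive, from 0.32 to 1.68, and passed in 5, in each of which Klf15 was the only one of the 9 factors called. In edgeR these were the fit with no filter on low counts (adjusted p = 0.0193, 4.13% of all genes called), the 2 groups alone (adjusted p = 0.0458, 1.46%), the fit without F-L replicate 1 (adjusted p = 0.0296, 3.12%) and the fit without F-L replicate 2 (adjusted p = 0.0335, 2.5%). The DESeq2 Wald test was the fifth (adjusted p = 0.00769, 4.75%). The F-H against F-L value stayed negative, from -2.86 to -0.95, and passed in 3: with DESeq2 (adjusted p = 0.0130, 25.7% of all genes called), and in edgeR without F-L replicate 1 (adjusted p = 0.0341, 16.8%) or without F-L replicate 2 (adjusted p = 0.0172, 23.8%). DESeq2 called 3 of the 9 factors there and the fit without F-L replicate 2 called 7, so these calls were not limited to Klf15. Over all 14 alternatives the adjusted p ran from 0.00769 to 1.0 for F-H-L against F-H and from 0.0130 to 0.475 for F-H against F-L. The direction was thus the same under every alternative run, whereas the call was not. Beside the low Klf15 level, F-H also held the fewest adipocyte marker reads after F-L replicate 1 and the most macrophage marker reads, and their part in it was not tested.

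The promoter of Klf15 is shown for this contrast with the other factors. It is the 250 bases before a RefSeq start in GRCm38.p6, plus strand, with matches to the same motifs in capitals.
Klf15, chr6:90462326-90462575: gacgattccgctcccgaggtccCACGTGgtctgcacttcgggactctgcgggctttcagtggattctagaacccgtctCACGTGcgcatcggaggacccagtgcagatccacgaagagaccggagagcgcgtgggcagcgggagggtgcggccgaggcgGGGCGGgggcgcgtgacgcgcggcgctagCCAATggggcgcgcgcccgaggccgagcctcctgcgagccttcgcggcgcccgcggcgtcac
CACGTG, an E-box read the same on both strands, occurred at -228 and -172, and 6.02% of all windows held at least 1. GGGCGG stood at -91 and was in 32.7% of all windows. No other window of the 7 factors held CACGTG.

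Klf5 (chr14:99298691-99313412, plus strand) was the least abundant factor. It measured 0.690 and 0.499 RPKM in F-H-L, 0.0705 and 0.566 RPKM in F-H, against 3.41 and 2.68 RPKM in F-L. Both F-L libraries were above the other 4, and F-H replicate 1 was the lowest with 6 counts. The log2 fold change was -3.07 ± 1.08 for F-H against F-L (edgeR adjusted p = 0.137), -2.11 ± 1.03 for F-H-L against F-L (edgeR adjusted p = 0.319) and 0.96 ± 1.01 for F-H-L against F-H (edgeR adjusted p = 0.743). The Klf5 level was highest in the libraries with the most epididymis marker reads, F-L replicates 1 and 2, and lowest in F-H replicate 1, which had the fewest. Male germ cell markers were likewise highest in F-L, at 655 and 5416 CPM, and lowest in F-H replicate 1, at 3.61 CPM. The part of epididymal or germ cell RNA in the Klf5 level was not tested. T cell markers summed to 20.5 and 23.2 CPM in F-H-L, 188 and 20.7 CPM in F-H, against 6.06 and 6.19 CPM in F-L, so F-H replicate 1 stood apart from its pair in that list as well.

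**Figure D2:**
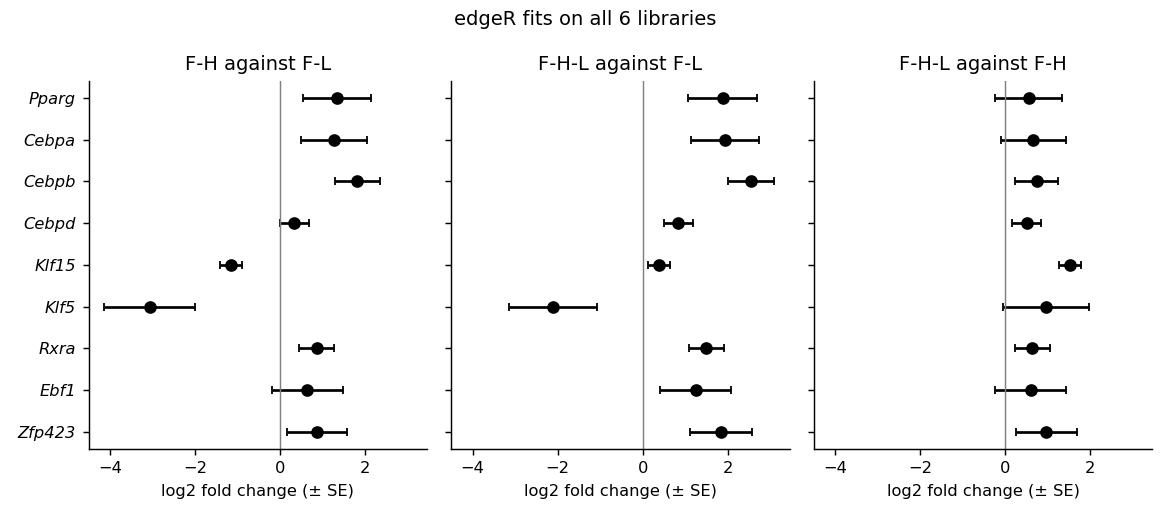
Log2 fold changes with SE of the 9 factors from the edgeR fit on all 6 libraries, for F-H against F-L, F-H-L against F-L and F-H-L against F-H. Klf15 has the shortest error bars and is at -1.14, 0.38 and 1.53, and Klf5 has the widest.

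For F-H against F-L, that is continuous high-fat against continuous low-fat feeding, the fitted change was positive for 7 factors and negative for Klf15 and Klf5. The values ran from -3.07 to 1.82, with a median of 0.86, against a median of -0.12 over all 22289 genes tested, of which 46.1% were positive. By edgeR 0 of 9 factors passed at an adjusted p under 0.05, and 0.866% of all genes did (193 genes). On simulated counts this fit missed nearly all of the smaller changes put in and many of the larger ones. Even the smaller changes put in exceeded most of the fitted changes of the 9 factors. A factor that did not pass is therefore not shown to be unchanged. At an unadjusted p under 0.05 the count was 3 of 9 (Cebpb, Klf15 and Klf5), and 29.2% of all genes reached it, a share close to that of the factors. In CPM the F-H libraries lay above both F-L libraries for 4 factors (Pparg, Cebpa, Cebpb and Rxra; 27.0% of all genes) and below them for 2 (Klf15 and Klf5; 28.8% of all genes).

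For F-H-L against F-L, diet cycling against continuous low-fat feeding, 8 factors had a positive value and Klf5 a negative one. The values ran from -2.11 to 2.56, with a median of 1.50, against -0.09 over all genes tested, of which 46.7% were positive. By edgeR 0 of 9 factors passed, as did 0% of all genes. At an unadjusted p under 0.05 the count was 3 of 9 (Cebpb, Rxra and Zfp423), and 17.8% of all genes (3975) reached it. In CPM both F-H-L libraries were above both F-L libraries for 8 factors (29.8% of all genes) and below them for Klf5 (23.8% of all genes). Both comparisons with F-L share the same F-L libraries, so their values are not independent of each other.

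For F-H-L against F-H, diet cycling against continuous high-fat feeding, all 9 factors had a positive value. The values ran from 0.51 to 1.53, with a median of 0.66, against 0.10 over all genes tested, of which 55.1% were positive. By edgeR 0 of 9 factors passed, as did 0% of all genes. At an unadjusted p under 0.05 the count was 1 of 9 (Klf15), and 10.6% of all genes (2362) reached it. In CPM both F-H-L libraries were above both F-H libraries for 7 factors (35.6% of all genes), all but Cebpb and Klf5, and below them for 0 (25.6% of all genes). The adipocyte geometric mean was also higher in both F-H-L libraries than in both F-H libraries, and its part in these values was not tested.

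The F-L comparisons turned on which F-L library was kept. Without F-L replicate 1, the library poor in adipocyte RNA, Pparg was at 0.53 ± 0.21 for F-H against F-L (edgeR adjusted p = 0.146), Cebpa at 0.52 ± 0.30 (edgeR adjusted p = 0.274) and Rxra at 0.40 ± 0.21 (edgeR adjusted p = 0.235). In that fit 1 of 9 factors passed (Klf15), with 16.8% of all genes called. Without F-L replicate 2 the values were 3.30 ± 0.25 for Pparg, 3.02 ± 0.35 for Cebpa and 1.61 ± 0.23 for Rxra, and 7 of 9 factors passed, all but Cebpb and Klf5, with 23.8% of all genes called. For F-H-L against F-L, 0 of 9 passed without F-L replicate 1 (7.85% of all genes called), with Pparg at 1.02 ± 0.22 (edgeR adjusted p = 0.0509), and 6 of 9 without F-L replicate 2 (14.4% of all genes called), with Pparg at 3.80 ± 0.26. The lone F-L library is assumed in these fits to vary like the other groups. Other fits on all 6 libraries also called some factors. For F-H against F-L, DESeq2 called 3 (Cebpb, Klf15 and Klf5; 25.7% of all genes called), edgeR with no filter 3 (Pparg, Cebpa and Cebpb; 14.1%) and edgeR scaled to adipocyte genes 1 (Klf5; 15.1%). For F-H-L against F-L, DESeq2 called 1 (Cebpb; 10.9%), edgeR with no filter 6 (all but Cebpd, Klf5 and Klf15; 9.18%) and the adipocyte scaling 1 (Klf5; 26.7%).

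**Figure D3:**
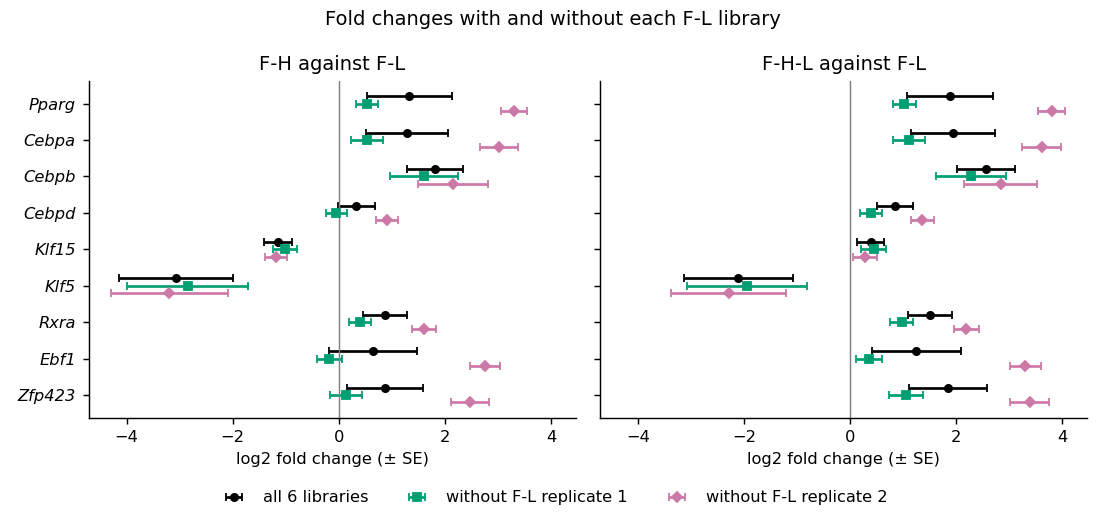
Log2 fold changes with SE of the 9 factors for F-H against F-L and F-H-L against F-L, from all 6 libraries, without F-L replicate 1 and without F-L replicate 2. Pparg moves between 0.53 and 3.30 for F-H against F-L, whereas Klf15 stays between -1.18 and -1.02.

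Relative to the adipocyte markers of the same library, F-L replicate 1 no longer stood apart for Pparg and Cebpa. The ratio of RPKM to the geometric mean RPKM of the 20 adipocyte genes, times 1000, was 88.3 and 70.5 in F-H-L, 144 and 107 in F-H, against 71.8 and 65.0 in F-L for Pparg. For Cebpa it was 586 and 549 in F-H-L, 1065 and 634 in F-H, against 588 and 439 in F-L. By this measure the F-H libraries were the highest for both genes, and F-L replicate 1 was within the range of the other 5. Most of the 20 genes are also listed targets of PPARγ and C/EBPα, so the ratio sets these factors largely against their own targets. The 20 genes include Cfd, which was lowest in both F-H libraries. For Klf15 the ratio was 20.3 and 18.6 in F-H-L, 15.5 and 15.6 in F-H, against 203 and 23.9 in F-L. Both F-H libraries stayed below the other 4. In proportion they were nearer to F-H-L than by RPKM, which was 3.47 and 4.53 in F-H against 11.1 and 11.3 in F-H-L. For Ebf1 it was 28.6 and 25.0 in F-H-L, 38.2 and 42.6 in F-H, against 34.3 and 34.9 in F-L, and for Zfp423 18.3 and 16.0 in F-H-L, 17.2 and 22.4 in F-H, against 20.7 and 13.8 in F-L. For the other 4 factors F-L replicate 1 had the highest ratio of the 6 libraries, as it did for Klf15. The Rxra ratio was 64.8 and 61.7 in F-H-L, 98.4 and 89.6 in F-H, against 176 and 53.9 in F-L. For Cebpd it was 50.4 and 40.8 in F-H-L, 82.7 and 65.5 in F-H, against 223 and 57.6 in F-L. The Cebpb ratio was 162 and 49.1 in F-H-L, 172 and 113 in F-H, against 180 and 35.0 in F-L, so the top library was close to F-H replicate 1. For Klf5 it spanned 0.314 in F-H replicate 1 to 63.3 in F-L replicate 1.

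**Figure D4:**
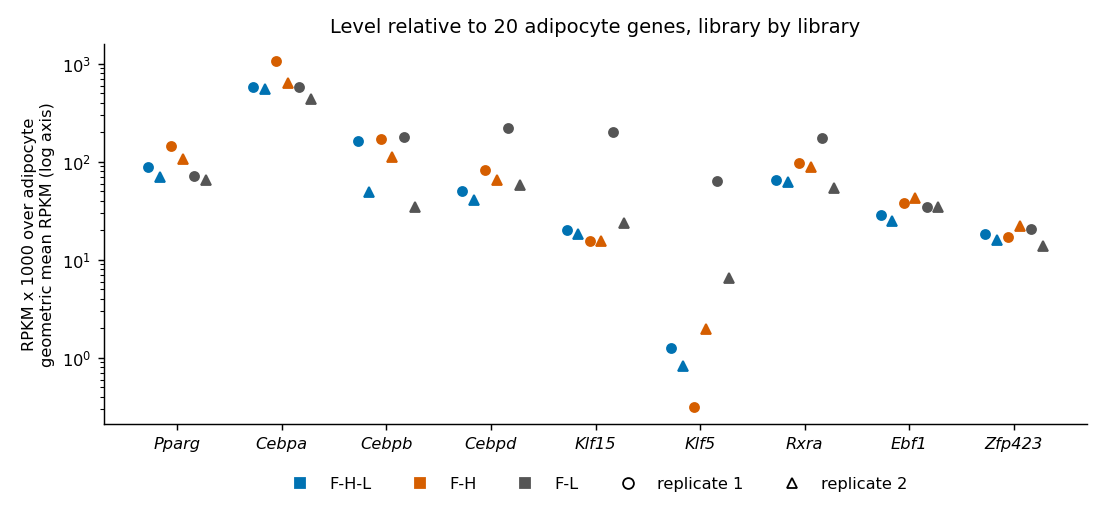
RPKM of each factor divided by the geometric mean RPKM of 20 adipocyte genes in the same library, times 1000, on a log axis, for F-H-L, F-H and F-L. For Pparg the libraries lie between 65.0 and 144, while Klf15 in F-L replicate 1, at 203, is far above its values of 15.5 to 23.9 in the other 5.

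When edgeR was run with libraries scaled to these adipocyte genes, the F-H-L against F-H values were negative for 8 factors, between -0.70 for Cebpd and -0.13 for Klf5, and positive for Klf15 at 0.32. That scaling moved the median of all genes to -1.10 in this comparison, and 0 of 9 factors passed (0.0718% of all genes called). The median of the 9 factors was -0.57 with this scaling and 0.66 without it, and that of all genes was -1.10 and 0.10, so the factors were lowered together with the genes at large. Each of the 8 negative values was smaller in size than its SE, and so was the positive Klf15 value (0.32 ± 1.25, edgeR adjusted p = 0.898). For F-H against F-L the same scaling gave 0.87 for Pparg and 0.73 for Cebpa (edgeR adjusted p = 0.627 and 0.715), against a median of all genes of -1.70.

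Over the 6 libraries, log2 CPM of 6 factors followed the adipocyte mean, with Pearson r of 0.951 for Pparg, 0.950 for Cebpa, 0.981 for Cebpd, 0.953 for Rxra, 0.980 for Ebf1 and 0.984 for Zfp423. It was 0.689 for Cebpb, 0.147 for Klf15 and -0.388 for Klf5. The adipocyte mean is made mostly of listed PPARγ and C/EBPα targets, and these r describe 6 points, of which F-L replicate 1 stands apart. Without it, over 5 libraries, r was 0.674 for Pparg, 0.680 for Cebpa, 0.929 for Cebpd, 0.808 for Rxra, 0.953 for Ebf1 and 0.915 for Zfp423. It was 0.300 for Cebpb, 0.953 for Klf15 and 0.387 for Klf5, so the low r of Klf15 over all 6 rested on F-L replicate 1, and the r of Pparg and Cebpa were lower without it. Between factors, r was 0.994 for Pparg with Cebpa and 0.963 or more for Rxra with Pparg, Cebpa, Cebpd and Zfp423, all over the same 6 libraries. Pairs without Rxra were as high, with 0.974 for Ebf1 with Zfp423, 0.972 for Cebpd with Zfp423 and 0.970 for Pparg with Ebf1. Among the lower pairs, r was 0.688 for Cebpb with Ebf1 and -0.119 for Pparg with Klf15. It was -0.633 for Pparg with Klf5 and -0.654 for Cebpa with Klf5. The r between factors were not computed without F-L replicate 1.

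Within their gene families, 4 of the factors were set beside their relatives in each library by RPKM. Pparg was 81.2% and 79.2% of the summed RPKM of the 3 PPAR genes in F-H-L, 78.9% and 76.5% in F-H, against 12.5% and 71.2% in F-L. In F-L replicate 1 the widely expressed relative Ppard, which responds to fatty acids in many tissues, made up 86.2%. Rxra was 63.9% and 62.1% of the RXR genes in F-H-L, 49.6% and 54.6% in F-H, against 27.9% and 54.4% in F-L, where Rxrb took 71.0% in replicate 1. Cebpa was 70.6% and 82.5% of the C/EBP genes in F-H-L, 75.1% and 72.2% in F-H, against 53.3% and 76.5% in F-L. Ebf1 was 75.1% and 77.1% of the EBF genes in F-H-L, 67.0% and 64.8% in F-H, against 52.3% and 75.5% in F-L, and Ebf4 took 31.4% in F-L replicate 1. For each of the 4 families F-L replicate 1 had the smallest share of the named factor, and outside that library the named factor was the largest member in all 5.

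**Figure D5:**
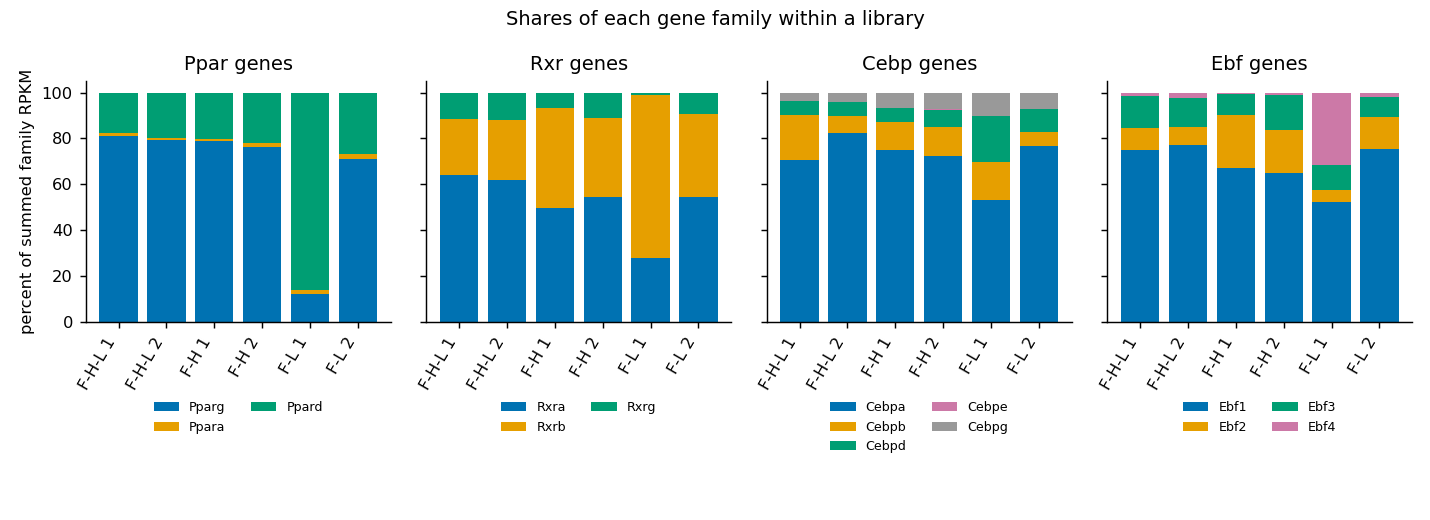
Share of each gene in the summed RPKM of the PPAR, RXR, C/EBP and EBF families, in percent, for each library of F-H-L, F-H and F-L. Pparg is 71.2% to 81.2% of the PPAR genes in 5 libraries and 12.5% in F-L replicate 1.

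The other genes of the pathway were described in 5 lists, none of whose members passed the edgeR test in any of the 3 comparisons. Of 24 target genes of PPARγ and C/EBPα, 21 were positive for F-H against F-L (median 0.84), 23 for F-H-L against F-L (median 1.76) and 20 for F-H-L against F-H (median 0.83), beside medians of all genes of -0.12, -0.09 and 0.10. By smallest p, these were Cfd, which encodes the adipokine adipsin, at -2.71 ± 0.70 and Gpd1, which makes the glycerol backbone of triglyceride, at 1.70 ± 0.62 for F-H against F-L. For F-H-L against F-L they were Agpat2, an acyltransferase of triglyceride synthesis, at 2.33 ± 0.61 and Gpd1 at 1.82 ± 0.62. For F-H-L against F-H they were Cfd at 2.92 ± 0.71 and Retn, which encodes resistin, at 2.86 ± 0.94. Cfd measured 1768 and 2524 RPKM in F-H-L, 204 and 383 RPKM in F-H, against 1150.1 and 3396 RPKM in F-L, so like Klf15 it was lowest in both F-H libraries. Trarg1 was matched through its Entrez ID.

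Of 11 relatives of the factors, 8 were positive for F-H against F-L (median 1.08), 8 for F-H-L against F-L (median 0.66) and 7 for F-H-L against F-H (median 0.33). Ebf4 was at -2.12 ± 0.90 and Cebpg, a C/EBP without an activation domain, at 1.08 ± 0.48 for F-H against F-L. Zfp521, a ZFP423 relative that restrains adipogenesis, was at 1.46 ± 0.67 and Ebf3 at 1.68 ± 0.80 for F-H-L against F-L. Ebf4 was at 1.55 ± 0.88 and Ppara, the PPAR of fatty acid oxidation, at 0.53 ± 0.56 for F-H-L against F-H. Their smallest edgeR adjusted p in the 3 comparisons was 0.188, 0.303 and 0.564.

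Of 15 coregulators, 11 were positive for F-H against F-L (median 0.40), 10 for F-H-L against F-L (median 0.30) and 5 for F-H-L against F-H (median -0.10). The nuclear receptor coactivator Ncoa3 was at 1.32 ± 0.40 and Ppargc1b, which encodes PGC-1β, at 1.35 ± 0.50 for F-H against F-L. The coactivators Ncoa2 and Ncoa1 were at -0.92 ± 0.27 and 0.68 ± 0.30 for F-H-L against F-L. Ncoa3 was at -1.48 ± 0.40 and Nrip1, a corepressor of nuclear receptors, at 0.74 ± 0.23 for F-H-L against F-H. The smallest edgeR adjusted p was 0.109, 0.274 and 0.363.

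Of 13 further factors that promote adipogenesis, 11 were positive for F-H against F-L (median 0.73), 11 for F-H-L against F-L (median 0.76) and 5 for F-H-L against F-H (median -0.03). Klf6 was at 1.72 ± 0.31 and Zfp467 at 1.50 ± 0.42 for F-H against F-L. Nfib was at 1.22 ± 0.31 and Zfp467 at 1.47 ± 0.42 for F-H-L against F-L. Egr2 was at -3.47 ± 1.03 and Creb1 at -0.86 ± 0.26 for F-H-L against F-H. The Krüppel-like relative Klf6 measured 33.0 and 30.8 RPKM in F-H-L, 65.9 and 60.5 RPKM in F-H, against 17.7 and 27.8 RPKM in F-L, highest in the group where Klf15 was lowest, with an edgeR adjusted p of 0.0646 for F-H against F-L.

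Of 16 factors that restrain adipogenesis, 8 were positive for F-H against F-L (median 0.13), 12 for F-H-L against F-L (median 0.28) and 9 for F-H-L against F-H (median 0.27). Klf2 was at 1.49 ± 0.38 and Dlk1, the preadipocyte factor Pref-1, at -4.18 ± 1.23 for F-H against F-L. Twist1 was at 1.61 ± 0.53 and Foxo1 at 1.13 ± 0.43 for F-H-L against F-L. Sox9 was at 2.26 ± 0.77 and Dlk1 at 3.06 ± 1.18 for F-H-L against F-H. The smallest edgeR adjusted p was 0.0891, 0.274 and 0.426. Dlk1 was low throughout, at 0.504 and 0.127 RPKM in F-H-L, 0.0169 and 0.0594 RPKM in F-H, against 1.21 and 0.369 RPKM in F-L.

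The genes most like each factor were named by the Pearson r of log2 CPM over the 6 libraries, among 8918 other genes with a mean RPKM of at least 5. Pparg was closest to Lpl, the lipoprotein lipase of fat cells (r = 0.998), then Ldha and Cpne2. Genes close to Cebpa were Sh2b2 (r = 0.999) and Scarb1, and Rxra was closest to Agpat2 (r = 0.999), Acads and Ldah. Cebpd was closest to Foxo1 (r = 0.996), Pank3 and Isoc1. Ebf1 was closest to Utrn, the lncRNA 4931408D14Rik and Lgals12 (r = 0.999 for the last), and Zfp423 to Sod3, Lpgat1 and Slc22a3 (r = 0.998 for the last). Cebpb, with 1 high F-H-L library, was closest to Ppp2ca (r = 0.986), Sacm1l and Ppp2r5b. Klf15 was closest to Aacs, which activates acetoacetate for lipid synthesis (r = 0.995), Acadsb, which acts in isoleucine breakdown (r = 0.990), and Prodh, which starts proline breakdown (r = 0.987). Klf5 was closest to Mfap3l (r = 0.990), Tpd52l1 and Myo5b. With 6 libraries, of which F-L replicate 1 stands apart, these names describe how levels ran over these libraries and nothing more.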

How the data were processed

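The deposited table holds, per the file headers, whole-number counts and RPKM for each library and a Length column (unit: other). The authors made RPKM from the counts, Length and the library total, and recomputing it gave the deposited RPKM to a relative 1e-06 for 100.0% of genes above 50 counts. The tools named per the submitters' processing notes are bcl2fastq, HISAT2 2.1.0 and HTSeq, with build mm10; the strandedness and the gene annotation were not given in the sources used here. Depth was 41091012 to 49230161 counts per library, and floors (3 counts) cover counting error only. Counts were tested with edgeR 4.0.16 in R 4.3.3: filterByExpr kept 22289 genes, libraries were TMM-scaled, and the 6 libraries shared 1 quasi-likelihood fit on group means with 3 residual degrees of freedom. Adjusted p is by Benjamini-Hochberg over all genes tested, two-sided, called under 0.05. SE is the log2 fold change over the square root of F. RPKM, with SDs over libraries, was used for levels between genes. Alternatives were DESeq2 1.42.0, limma 3.58.1 on log2(RPKM + 1) and log2(RPKM + 0.1), median-ratio factors, no filter, the 2 groups alone, a replicate block, scaling to 20 adipocyte genes, and each library left out; a crossed block was added after seeing the data. The fit was tested on simulated data with known fold changes, where it recovered directions and sizes but called few of the smaller changes and missed many of the larger ones. Members and lists were chosen with earlier results of these data known. Besides the 9 factors, the text names the 2 genes of each list with the smallest p in each comparison and the 3 genes most like each factor, of which 1 is not reported here; Cfd, Klf6 and Dlk1 levels were added after their values were seen. Promoters are from RefSeq (GRCm38.p6), and transcript starts from GENCODE M21.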

Additional observations from a re-analysis of the deposited data

How the results depend on the processing

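The 27 fold changes of the 9 factors were recomputed under 14 alternatives, giving 378 values, of which 325 kept their direction and side of the threshold, 34 newly passed and 19 changed sign. Scaling to adipocyte genes gave 16 of the sign changes. It shifts all genes of a library together. With it the medians of all genes were -1.70 for F-H against F-L, -2.92 for F-H-L against F-L and -1.10 for F-H-L against F-H. The signs thus depended on the scaling used, and which scaling is the better one was not tested. None of the 16 values passed the test. For F-H against F-L these were Cebpd at -0.92 and Rxra at -0.29; for F-H-L against F-L, Cebpb -0.021, Cebpd -1.62, Klf15 -2.54, Rxra -0.86, Ebf1 -0.37 and Zfp423 -0.013; for F-H-L against F-H, Pparg -0.66, Cebpa -0.58, Cebpb -0.43, Cebpd -0.70, Klf5 -0.13, Rxra -0.57, Ebf1 -0.59 and Zfp423 -0.21. Leaving out a library gave the other 3, with ranges of -0.046 to 0.92 for Cebpd and -0.18 to 2.76 for Ebf1 in F-H against F-L, and -0.16 to 1.31 for Cebpb in F-H-L against F-H.

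The count of factors and of genes past the test for F-H against F-L was 3 and 6025 with no filter, 3 and 6073 with DESeq2, 1 and 3356 with adipocyte scaling, and 0 to 7 and 0 to 5799 with a library left out. In that comparison limma called 411 genes (pseudocount 1) and 1040 (0.1), and 0 were called with median-ratio factors, with the 2 groups alone and with the replicate block, against 193 in the reported fit. For F-H-L against F-L the counts were 6 and 3910 with no filter, 1 and 2313 with DESeq2, 1 and 5947 with adipocyte scaling, and 0 to 6 and 0 to 3508 with a library left out. For F-H-L against F-H they were 1 and 1759 with no filter, 1 and 925 with DESeq2, 1 and 289 with the 2 groups alone, 0 and 16 with adipocyte scaling, and 0 to 1 and 0 to 828 with a library left out. Where these differ, the cause was not tested. Deviations of equally numbered libraries correlated at 0.024 for F-H against F-L, -0.138 for F-H-L against F-L and -0.019 for F-H-L against F-H. With 2 libraries in a group each r rests on a single difference per group, so these r cannot decide whether equal numbers pair the libraries. The replicate block, and for F-H-L against F-L the crossed pairing (chosen after seeing the data), called 0 factors and 0 genes. Median-ratio factors moved the median of all genes for F-H-L against F-L to -0.21. Counting error was 40.8% for Klf5 in its lowest library and 5.76% or less for the other factors in theirs.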
